A study of Homo sapiens with 8 samples.

Results

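The genes described here are inhibitors of apoptosis: the BCL2 relatives BCL2, BCL2L1 (BCL-XL), MCL1 and BCL2A1, the IAP genes BIRC2, BIRC3, BIRC5 and XIAP, and the death-receptor and caspase inhibitors CFLAR (FLIP) and NOL3 (ARC). Their members were all probe sets whose only gene symbol in the platform annotation was 1 of these 10 names. This gave 33 probe sets for 9 genes, out of 22215 probe sets other than array controls. No probe set was named BIRC3, so its expression was not analysed here. Expression was measured in SKOV-3, CAOV-3, OVCAR-3 and DOV-13, established lines grown from human ovarian cancers. Every line contributed a pair of arrays, 1 of cells treated with pI:pC and 1 of untreated cells, which gives 4 treated and 4 untreated arrays. The agent pI:pC, polyriboinosinic:polyribocytidylic acid, mimics the double-stranded RNA of viruses and was added to the culture medium. All cultures shared a medium with fetal bovine serum, L-glutamine and gentamicin. The labels mention various pI:pC concentrations without saying which array had which, and give no duration of treatment. They do not say whether an array held 1 culture or several. The question was whether the level of these inhibitors differed between treated and untreated cells and between the lines.

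Apoptosis can start at mitochondria or at death receptors. BCL2, BCL-XL, MCL1 and BCL2A1 hold back BAX and BAK at the mitochondrial membrane, the IAP proteins act on caspases or on receptor signalling complexes, and FLIP occupies the place of caspase-8 at death receptors. Sensing of double-stranded RNA switches on NF-kB, a transcription factor that drives inflammation genes, of which several of these inhibitors are known targets. Double-stranded RNA is known both to start death signalling and to induce genes that oppose it.

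The values are log2 expression levels, so a difference of 1 is a 2-fold change. The array medians lay between 6.19 and 6.30, and a probe set under its array's median is called dim here. Pearson's r over all probe sets was 0.992 to 0.997 within a line and 0.897 to 0.947 between lines. Of 11 epithelial and ovarian carcinoma markers, 7 in SKOV-3, 5 in DOV-13, 9 in CAOV-3 and 11 in OVCAR-3 reached the median in untreated cells. The keratin genes KRT8, KRT18 and KRT19 and the ovarian lineage factor PAX8 did so in every line. CDH1, which encodes E-cadherin, was dim in untreated SKOV-3 and DOV-13 (3.74 and 3.59), and EPCAM was dim in untreated DOV-13 (5.42). Of 6 leukocyte markers 1 (CD14 in CAOV-3), and of 5 endothelial markers 1 (TEK in OVCAR-3), reached the median in untreated cells. Of 6 fibroblast and stromal markers, 1 or 2 did so in each line.

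Over the 4 lines no apoptosis inhibitor passed the test between treated and untreated cells. Of the 33 probe sets, 18 had a positive and 15 a negative mean change (pI:pC minus untreated, averaged over the lines). Their median was 0.019 and their range -0.20 to 0.18, beside a median of 0.0065 over all 22215 probe sets. With line pairs kept as a block in limma, 0 of the 33 passed an adjusted p of 0.05 in either direction, and 0 of all probe sets did (0.0% higher and 0.0% lower; smallest adjusted p = 0.996). The 11 measured interferon-stimulated genes, with a median mean change of 1.31, did not pass either. A probe set that failed this test is thus not shown to be unchanged. At an unadjusted p under 0.05 there was 1 member, a probe set of NOL3, where 3.85% of all probe sets were under it. The sign was positive in every line for 2 members (6.74% of all probe sets) and negative in every line for 1 member (4.77% of all). Differences within a line rest on 1 array per condition and have no test, and whether the lines differed in their response was not tested.

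Within lines, probe sets of MCL1, BIRC2, BIRC5 and CFLAR had differences of at least 0.5 with the higher value, though not always both, at or above the median. A probe set was counted where its 2 arrays differed by at least 0.5 and the higher value reached the median probe set of the pair. This held in at least 1 line for 5 of the 33 members and for 5.11% of all probe sets. In CAOV-3 this held for BIRC2 and 1 probe set of MCL1 as higher (2.21% of all probe sets were higher there) and for 2 probe sets of BIRC5 as lower (1.53% of all). In SKOV-3 it held for 1 probe set each of MCL1 and CFLAR as lower (0.626% of all), and for 0 as higher (0.113% of all). In DOV-13 none was counted as higher or lower (0.342% and 0.198% of all), and none in OVCAR-3 (0.446% and 0.225% of all). In DOV-13, 26 of the 33 probe sets were higher after pI:pC, by a median of 0.14, where 60.8% of all probe sets were higher and the median of all was 0.036. In SKOV-3, 14 members were higher (53.1% of all probe sets), in CAOV-3 21 (46.8% of all) and in OVCAR-3 16 (47.4% of all). No counted member reached a difference of 1, which in either direction 0.018% of all probe sets did in SKOV-3 and 0.86% in CAOV-3.

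**Figure D1:**
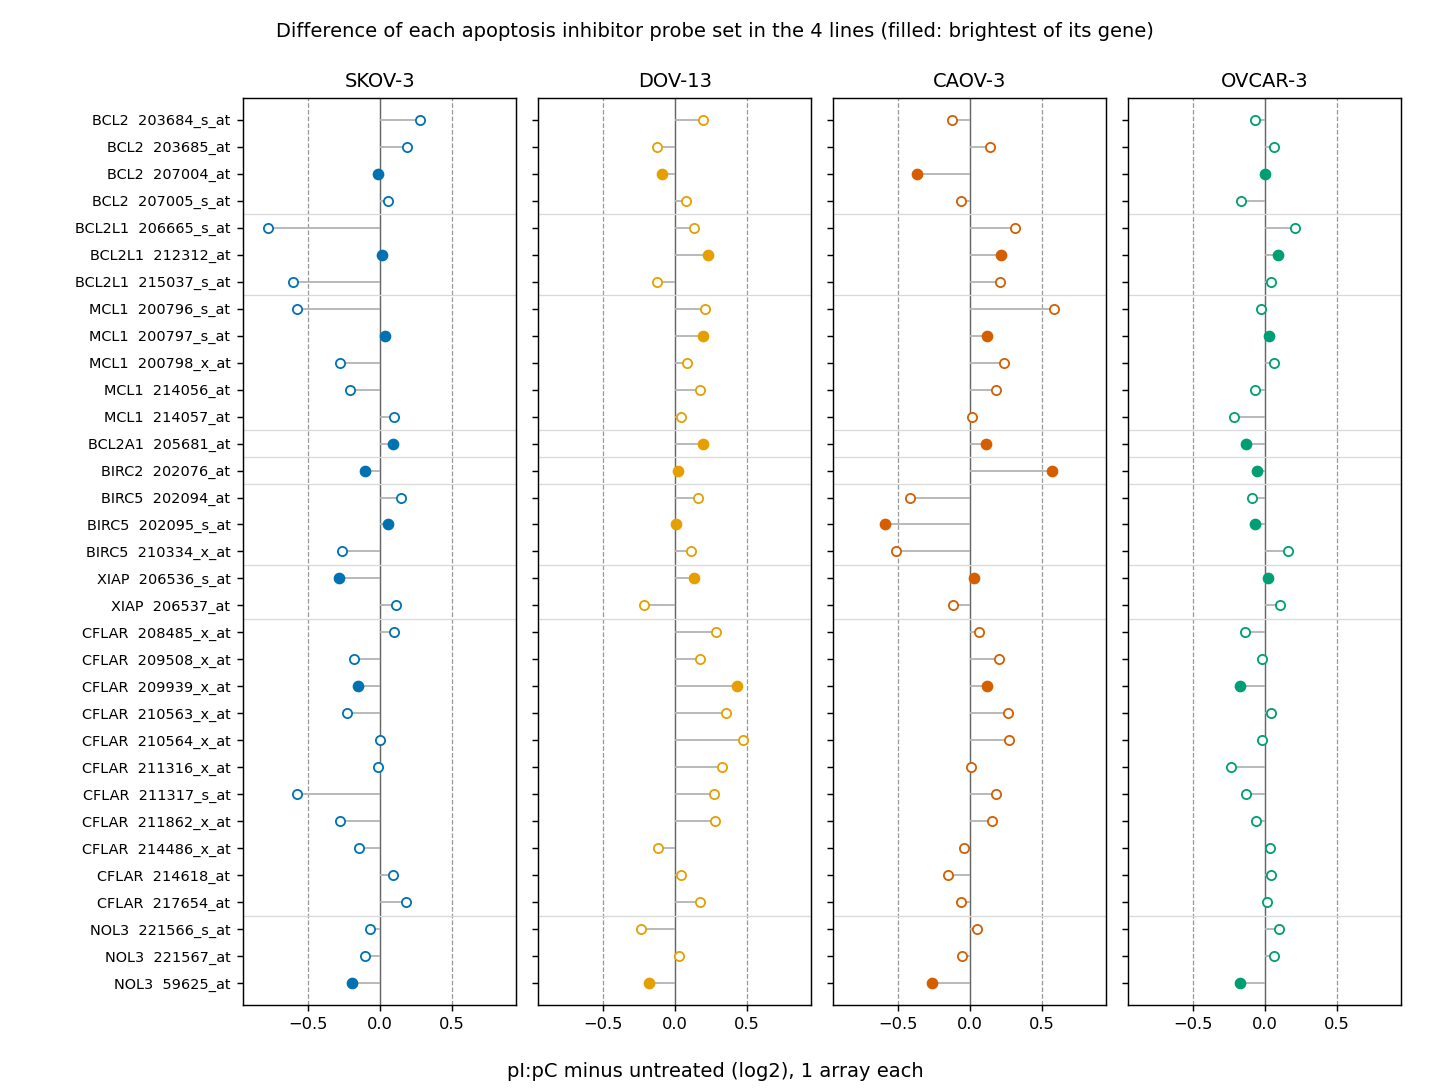
Each row is 1 apoptosis inhibitor probe set and each panel 1 cell line. The horizontal axis is pI:pC minus untreated on the log2 scale (1 array each), filled points mark the brightest probe set of each gene, and dashed lines mark 0.5 in size. BIRC5 lies to the left in CAOV-3, most CFLAR probe sets lie to the right in DOV-13, and the differences in OVCAR-3 stay between -0.23 and 0.21.

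Among the BCL2 relatives, MCL1 lay far above the array median on its brightest probe set, which differed by less than 0.2 in every line. MCL1 is a short-lived protein that binds BAK and BH3-only proteins. Its brightest probe set, 200797_s_at, had 10.01 in treated against 9.97 in untreated SKOV-3 cells, 10.89 against 10.69 in DOV-13, 10.71 against 10.59 in CAOV-3 and 10.75 against 10.73 in OVCAR-3. The treated array was the higher one in all 4 lines, by 0.03 to 0.19, and the mean change was 0.096 ± 0.078 (SD, n = 4 lines; limma adjusted p = 0.996). SKOV-3 lay below the other lines in both arrays, whereas DOV-13 and OVCAR-3 overlapped. Its levels differed between lines by limma's moderated F test with treatment as a term (adjusted p = 0.00026).

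The other MCL1 probe sets did not follow the brightest one in each line. The probe set 200796_s_at, which lay close to the median, had 5.78 in treated against 6.36 in untreated SKOV-3 and 6.47 against 5.88 in CAOV-3. It was thus lower by 0.58 in SKOV-3 and higher by 0.59 in CAOV-3. In DOV-13 it had 6.23 against 6.01 and in OVCAR-3 5.92 against 5.95. A count as higher in 1 line and lower in another was made for this 1 member and for 0.104% of all probe sets. The bright probe set 200798_x_at differed by -0.28 in SKOV-3 and 0.24 in CAOV-3, the same signs with smaller size. In SKOV-3, 3 of the 5 MCL1 probe sets were lower and 2 higher, and in DOV-13 and CAOV-3 all 5 were higher.

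BCL2L1, which encodes the anti-apoptotic BCL-XL and, by splicing, the pro-apoptotic BCL-XS, showed the largest difference of any member, in SKOV-3. Its brightest probe set, 212312_at, had 8.58 in treated against 8.57 in untreated SKOV-3, 8.84 against 8.60 in DOV-13, 8.30 against 8.08 in CAOV-3 and 8.56 against 8.47 in OVCAR-3. It was the other member that was higher in every line, with a mean change of 0.14 ± 0.10 (SD, n = 4 lines; limma adjusted p = 0.996). The remaining probe sets are given because of their values: 206665_s_at had 5.31 in treated against 6.09 in untreated SKOV-3, and 215037_s_at had 5.37 against 5.97. These differences of -0.78 and -0.60 stood beside 0.016 for the brightest probe set. Both were dim on the 2 SKOV-3 arrays and so were not counted. At any level 4 members were lower by at least 0.5 in SKOV-3, with 1.16% of all probe sets, and 0 were higher, with 0.324% of all. In CAOV-3 all 3 probe sets were higher, by 0.21 to 0.31, and in OVCAR-3 by 0.04 to 0.21. The probe-set sequences are not used here, so which BCL2L1 transcripts each one detects was not examined.

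The SKOV-3 differences of BCL2L1, MCL1 and CFLAR below -0.5 were set beside a measure of RNA integrity. For the control probe sets of ACTB and GAPDH, the level at the 3′ end minus that at the 5′ end was 0.67 and 0.30 in treated SKOV-3, against 0.63 and 0.20 in untreated SKOV-3. Between treated and untreated arrays it moved by 0.034 and 0.098 in SKOV-3, and by -0.056 to 0.15 in the other lines. For ACTB it was 1.26 in treated and 1.32 in untreated OVCAR-3, against 0.58 to 0.94 in the other lines. For GAPDH it was 0.080 and 0.12 in OVCAR-3, within the range of the other lines. The part of RNA integrity in the differences within and between lines was not tested.

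BCL2 and BCL2A1 were dim on every array. BCL2, the founding member of the family, had 4 probe sets with levels between 3.87 and 5.73 over the 8 arrays. The brightest, 207004_at, had 5.64 in treated against 5.65 in untreated SKOV-3, 5.57 against 5.66 in DOV-13, 5.37 against 5.73 in CAOV-3 and 5.69 in both OVCAR-3 arrays. The treated CAOV-3 array stood lowest, by 0.37 under its untreated partner, and the mean change was -0.11 ± 0.17 (SD, n = 4 lines; limma adjusted p = 0.996). The probe sets 203684_s_at and 203685_at were higher in treated SKOV-3 by 0.28 and 0.19. Of the 4, 203685_at differed between lines (limma's moderated F test, adjusted p = 5.98e-05), with 5.12 in treated and 5.24 in untreated DOV-13 and at most 4.46 in the other lines. BCL2A1, an NF-kB target mostly of blood cells, had 3.53 against 3.43 in SKOV-3, 3.64 against 3.45 in DOV-13, 3.52 against 3.41 in CAOV-3 and 3.40 against 3.53 in OVCAR-3. Only 1.2% of all probe sets had a mean level at or below it, and its mean change was 0.068 ± 0.14 (SD, n = 4 lines; limma adjusted p = 0.996). RMA compresses differences at such levels, so small values here do not show that a gene did not change.

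**Figure D2:**
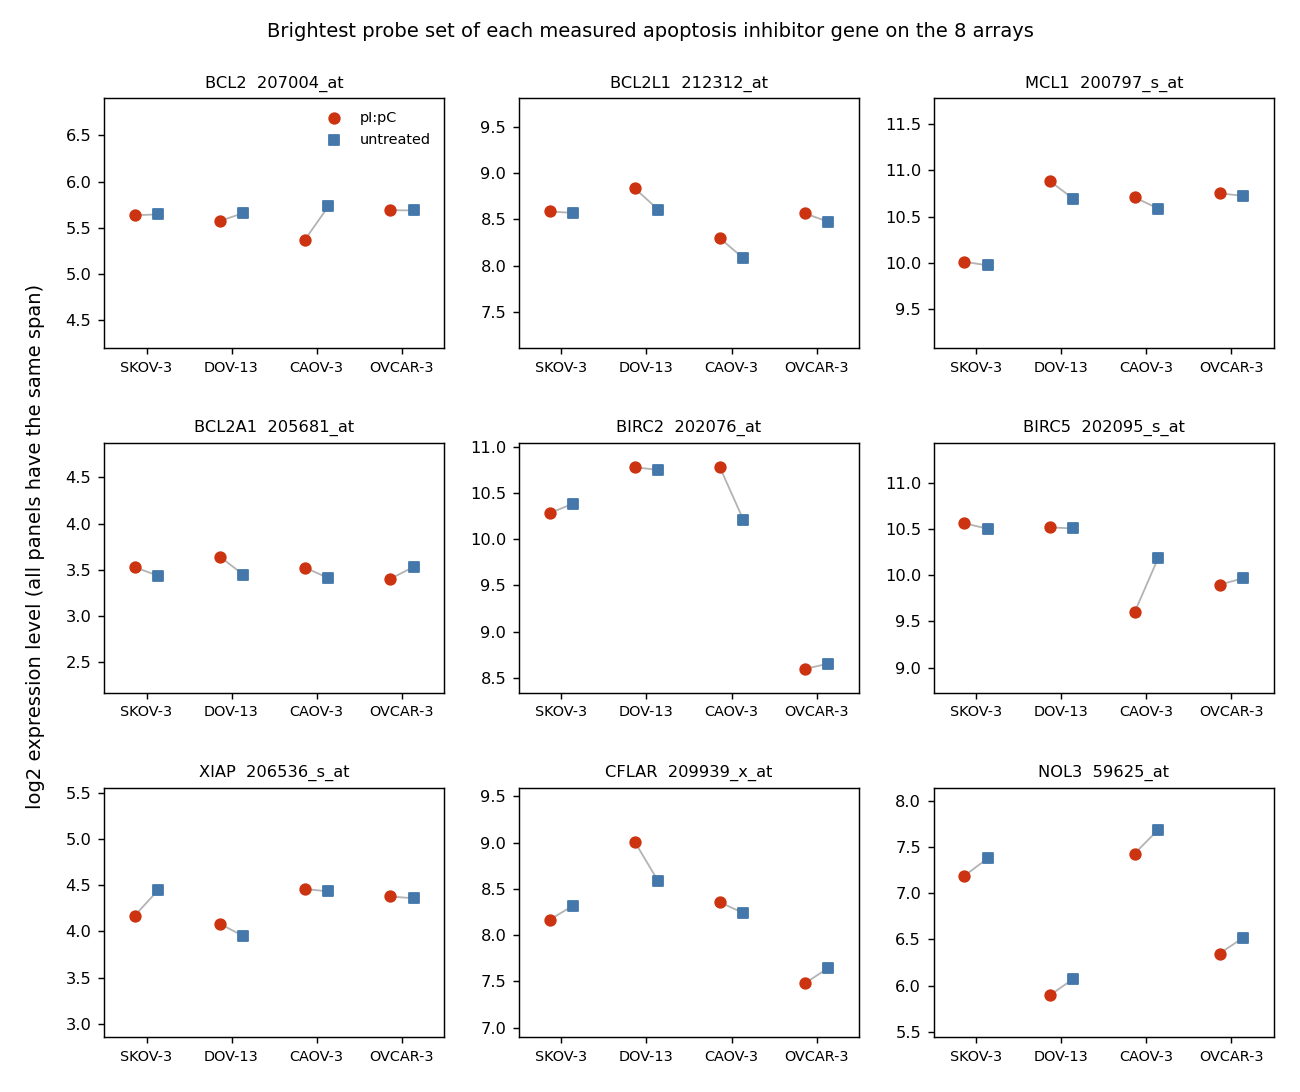
Each panel shows the brightest probe set of 1 gene on the 8 arrays, with cell lines along the horizontal axis and the log2 expression level on the vertical axis. Circles are pI:pC arrays and squares untreated arrays, 1 each per line, and every panel spans the same number of log2 units. For BCL2L1, MCL1, BIRC2, XIAP, CFLAR and NOL3 the untreated lines span a wider range than the 2 arrays of any line. NOL3 is lower in each treated array by 0.17 to 0.26.

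Among the IAP genes, BIRC2 was higher after pI:pC in CAOV-3. BIRC2 encodes cIAP1, a ubiquitin ligase of TNF receptor complexes. Its 1 probe set, 202076_at, had 10.28 in treated against 10.39 in untreated SKOV-3, 10.78 against 10.75 in DOV-13, 10.78 against 10.21 in CAOV-3 and 8.60 against 8.66 in OVCAR-3. The difference in CAOV-3 was 0.57, and in the other lines it lay between -0.11 and 0.025. The mean change of 0.11 ± 0.32 (SD, n = 4 lines; limma adjusted p = 0.996) became -0.046 without CAOV-3. Both OVCAR-3 arrays lay more than 1 log2 unit below all others, the neighbouring lines SKOV-3, CAOV-3 and DOV-13 overlapped, and the lines differed by limma's moderated F test (adjusted p = 3.56e-05).

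BIRC2 is set here beside genes that NF-kB induces or that end its signalling. Of 11 measured genes of that list, 11 had a positive mean change and 0 passed limma's test over all probe sets. The list median of the mean changes was 0.51, beside 0.0072 over the brightest probe sets of all 11963 genes. In CAOV-3, 10 of the 11 were counted as higher, with a list median of 1.21, beside 303 of all 11963 genes counted as higher. CXCL8 (interleukin 8) had a difference of 3.45 there, and CXCL2, a neutrophil attractant, stood at the list median. The list medians were 0.072 in SKOV-3, 0.37 in DOV-13 and 0.19 in OVCAR-3, where BIRC2 had differences of -0.11, 0.025 and -0.058.

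The promoter of BIRC2 is shown because BIRC2 was the only IAP member counted as higher, and that of CFLAR because most of its probe sets were higher in DOV-13. The sequences come from RefSeq (GRCh38.p14), on the + strand, 250 bases before to 50 after the start. That of BIRC2 is chr11:102346964-102347263 and its capitals mark TGACGTCA, the cyclic AMP response element. That of CFLAR is chr2:201118466-201118765, the most upstream of 4 listed starts, and its capitals mark a match to the NF-kB consensus.
BIRC2: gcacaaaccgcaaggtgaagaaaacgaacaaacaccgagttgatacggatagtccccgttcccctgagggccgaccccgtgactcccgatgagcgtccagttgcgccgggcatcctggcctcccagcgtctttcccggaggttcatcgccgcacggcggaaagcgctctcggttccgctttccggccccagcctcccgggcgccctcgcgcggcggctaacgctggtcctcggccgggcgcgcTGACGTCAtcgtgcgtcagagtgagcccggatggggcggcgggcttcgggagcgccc
CFLAR: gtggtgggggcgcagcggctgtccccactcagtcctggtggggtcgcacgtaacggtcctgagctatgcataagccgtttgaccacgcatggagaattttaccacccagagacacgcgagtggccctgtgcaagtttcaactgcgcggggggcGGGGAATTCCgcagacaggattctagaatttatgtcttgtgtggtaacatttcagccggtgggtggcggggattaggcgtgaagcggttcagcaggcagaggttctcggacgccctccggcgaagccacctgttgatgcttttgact
TGACGTCA begins at -7 from the BIRC2 start shown and at -167 from the other listed start. It occurs in 1.85% of 35116 promoters of this length, searched on both strands. The NF-kB consensus begins at -97 of the CFLAR start shown and occurs in 11.3%, and the windows of the other 3 CFLAR starts hold no match. The core of the interferon-stimulated response element occurs in 3.57%. No match to the NF-kB consensus was found in the 2 BIRC2 windows, and the interferon element core was found in the window of BCL2A1 but in none of BIRC2, CFLAR, BCL2, BCL2L1, XIAP or NOL3. MCL1 and BIRC5 had no listed promoter and were not searched. A match describes these letters and shows no binding, and lack of a match in such a window does not show that an element is missing.

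BIRC5 (survivin) was lower after pI:pC in CAOV-3 on all 3 of its probe sets. Survivin is the smallest IAP and, with AURKB, INCENP and CDCA8, forms the chromosomal passenger complex of mitosis. The brightest probe set, 202095_s_at, had 10.56 in treated against 10.50 in untreated SKOV-3, 10.52 against 10.51 in DOV-13, 9.60 against 10.19 in CAOV-3 and 9.90 against 9.97 in OVCAR-3. The probe set 210334_x_at had 8.61 against 8.87 in SKOV-3, 8.99 against 8.88 in DOV-13, 8.09 against 8.61 in CAOV-3 and 8.14 against 7.98 in OVCAR-3. In CAOV-3 the differences were -0.59 and -0.51, and the third probe set, 202094_at, had -0.41. Outside CAOV-3 the 9 differences lay between -0.27 and 0.16. The mean changes of the 2 counted probe sets were -0.15 ± 0.30 and -0.13 ± 0.32 (SD, n = 4 lines; limma adjusted p = 0.996 for both), and without CAOV-3 they became 0.0007 and 0.0021. In SKOV-3 the probe sets split, with 2 higher and 1 lower. Levels differed between lines for 202095_s_at and 210334_x_at (limma's moderated F test, adjusted p = 0.00919 and 0.00672).

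BIRC5 is set here beside its passenger complex partners and other mitosis genes. All 12 genes of that list had negative differences in CAOV-3, with a median of -0.48, beside -0.018 over the brightest probe sets of all genes. By the rule of 0.5, 6 of the 12 were counted as lower there, beside 202 of all 11963 genes. None of the 3 partners was among the 6. KIF20A, a mitotic kinesin, had -0.88, and the cyclin gene CCNB2 had -0.69. Among the partners CDCA8 had -0.46, AURKB -0.20 and INCENP -0.022. The list medians were 0.0015 in SKOV-3, 0.13 in DOV-13 and -0.026 in OVCAR-3, and 0 of the 12 passed limma's test over all lines. In bulk RNA, fewer cells in mitosis and less of these transcripts per cell cannot be told apart.

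**Figure D3:**
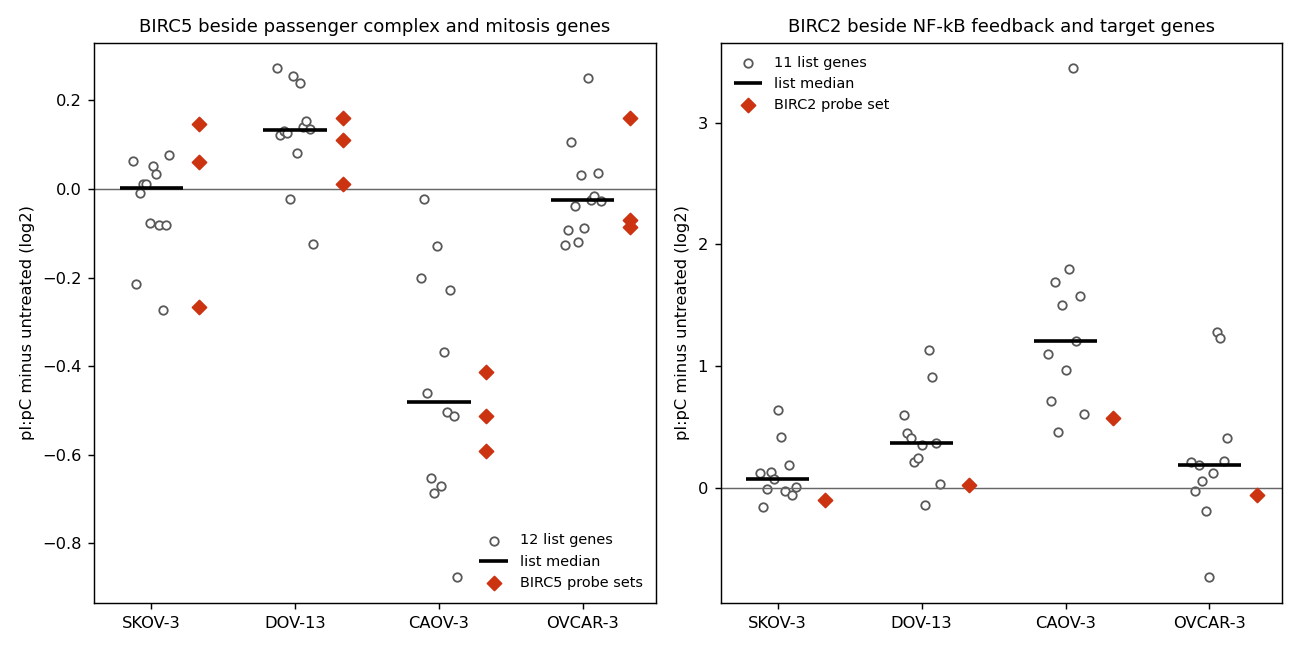
The vertical axis is pI:pC minus untreated on the log2 scale, by cell line. Open points are the genes of a list (brightest probe set each), black bars their medians, and red diamonds the BIRC5 probe sets (left) or the BIRC2 probe set (right). In CAOV-3 BIRC5 lies at -0.41 to -0.59 around the list median of -0.48, and BIRC2 at 0.57 under its list median of 1.21.

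XIAP, which binds and blocks caspases, was dim on all arrays. Its brighter probe set, 206536_s_at, had 4.17 in treated against 4.45 in untreated SKOV-3, 4.08 against 3.95 in DOV-13, 4.46 against 4.43 in CAOV-3 and 4.38 against 4.36 in OVCAR-3. The other, 206537_at, differed by 0.11, -0.21, -0.12 and 0.11 in the same order of lines. The signs of the pair were opposite in SKOV-3, DOV-13 and CAOV-3. The mean change of the brighter one was -0.025 ± 0.18 (SD, n = 4 lines; limma adjusted p = 0.996), and without SKOV-3 it was 0.060. XAF1, which encodes an interferon-induced binding partner that opposes XIAP, had 9.97 in treated against 7.72 in untreated CAOV-3. In SKOV-3 it had 5.11 against 5.07, in DOV-13 4.99 against 5.13 and in OVCAR-3 5.07 against 4.87, all dim. Its mean change was 0.59 ± 1.12 (SD, n = 4 lines; limma adjusted p = 0.996). Of the 4 measured antagonists of IAP proteins, XAF1 was counted in CAOV-3 and DIABLO, HTRA2 and SEPTIN4 in no line.

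CFLAR was highest in DOV-13 and was higher there after pI:pC on most of its probe sets. CFLAR encodes FLIP, a caspase-8 homologue without protease activity, and is known as an NF-kB target. Its 11 probe sets share transcripts, and the 8 that end in _x_at may take up related sequences, so they are not independent measurements. The brightest, 209939_x_at, had 8.17 in treated against 8.32 in untreated SKOV-3, 9.01 against 8.58 in DOV-13, 8.36 against 8.24 in CAOV-3 and 7.48 against 7.65 in OVCAR-3. Its treated DOV-13 array was the highest of the 8, and the mean change over the lines was 0.057 ± 0.28 (SD, n = 4 lines; limma adjusted p = 0.996), which became -0.068 without DOV-13.

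In DOV-13, 10 of the 11 CFLAR probe sets were higher after pI:pC and 7 by at least 0.2, where 13.0% of all probe sets were. The median of the 11 was 0.28 and the largest was 0.48, for 210564_x_at, which fell just under 0.5. In CAOV-3, 8 were higher, with a median of 0.12. In SKOV-3 and OVCAR-3, 7 were lower, with medians of -0.14 and -0.023. The probe set counted in SKOV-3, 211317_s_at, had 6.24 in treated against 6.82 in untreated SKOV-3, 7.89 against 7.62 in DOV-13, 6.84 against 6.66 in CAOV-3 and 6.26 against 6.39 in OVCAR-3. The difference in SKOV-3 was -0.58, whereas 208485_x_at and 210564_x_at, chosen for their values, had 0.10 and 0.0018 in the same line. The median of the NF-kB list was 0.072 in SKOV-3, 0.37 in DOV-13, 1.21 in CAOV-3 and 0.19 in OVCAR-3. The CFLAR medians are over 11 probe sets of 1 gene and those of the list over 11 genes, and a relation between them was not tested.

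The level of CFLAR also differed between lines. On 9 of the 11 probe sets both DOV-13 arrays lay above the 6 arrays of the other lines, where 13.7% of all probe sets did so. On 6 of the 11 both OVCAR-3 arrays lay below all others (16.8% of all probe sets). For 209939_x_at the order from low to high was OVCAR-3, then SKOV-3 and CAOV-3, which overlapped, then DOV-13 (limma's moderated F test, adjusted p = 0.000895). The probe sets 214618_at and 217654_at were dim on all arrays, between 3.64 and 4.37, and showed neither order.

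**Figure D4:**
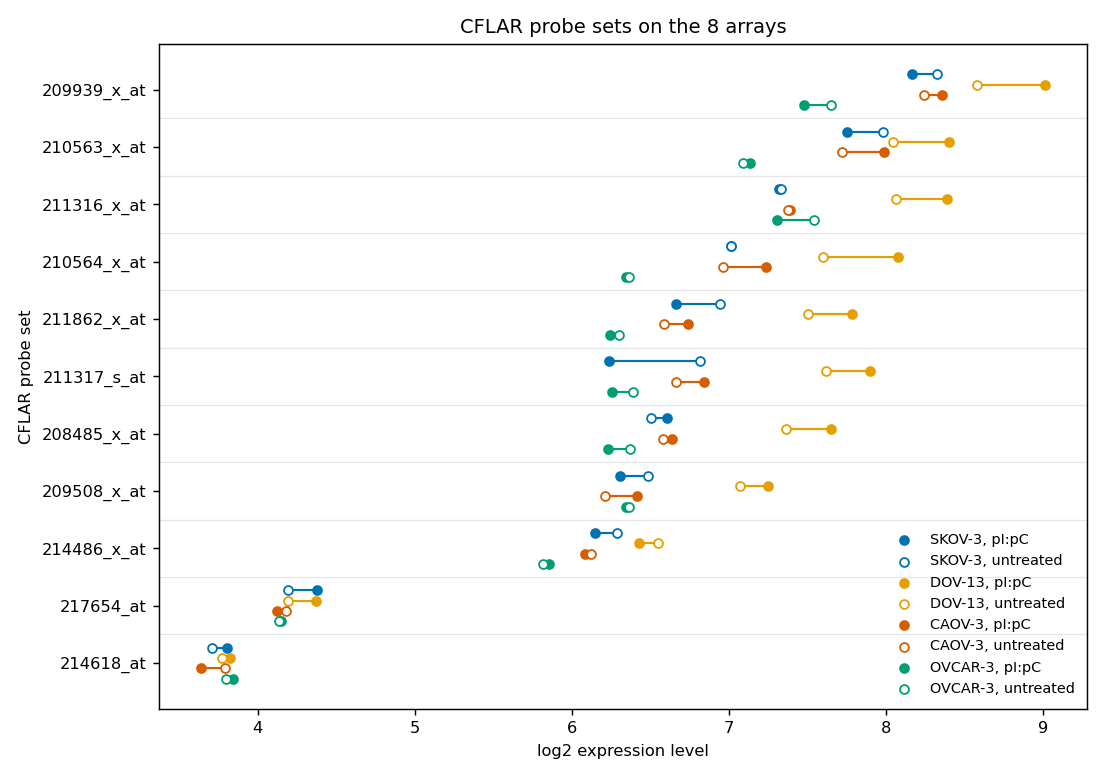
Each row is 1 CFLAR probe set, the horizontal axis is the log2 expression level, filled points are pI:pC arrays and open points untreated arrays, coloured by line. Levels are to be compared along a row. On 9 of the 11 rows DOV-13 lies to the right of the other lines, and on most of those its filled point lies to the right of its open point.

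NOL3 came closest to a common difference, on 1 of its 3 probe sets. NOL3 encodes ARC, a CARD protein that binds caspase-8 and BAX in muscle and other cells. Its brightest probe set, 59625_at, had 7.19 in treated against 7.38 in untreated SKOV-3, 5.89 against 6.07 in DOV-13, 7.43 against 7.69 in CAOV-3 and 6.35 against 6.52 in OVCAR-3. The treated array was lower in 4 of 4 lines, by 0.17 to 0.26, with a mean change of -0.20 ± 0.040 (SD, n = 4 lines; unadjusted p = 0.00995 and adjusted p = 0.996 in limma's test). The other probe sets did not repeat this: in SKOV-3 221566_s_at differed by -0.066 and 221567_at by -0.10. They had -0.23 and 0.032 in DOV-13, 0.050 and -0.054 in CAOV-3, and 0.097 and 0.065 in OVCAR-3.

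Between lines the 3 NOL3 probe sets shared a split, though not a full order. All 4 arrays of SKOV-3 and CAOV-3 lay above all 4 arrays of DOV-13 and OVCAR-3 on each of them, where 7.05% of all probe sets did so. Their adjusted p in limma's moderated F test was 4.95e-06 for 59625_at, 3.91e-05 for 221567_at and 9.78e-06 for 221566_s_at. In untreated cells 59625_at had 7.69 in CAOV-3, 7.38 in SKOV-3, 6.52 in OVCAR-3 and 6.07 in DOV-13, and no neighbours in that order overlapped.

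Over all members, 19 of the 33 probe sets differed between lines by the moderated F test (adjusted p under 0.05), against 65.5% of all probe sets, so that these inhibitors were not set apart by it. The 19 comprised 9 of CFLAR, all 3 of NOL3, 2 of BIRC5 and 1 each of BCL2, BCL2L1, MCL1, BIRC2 and XIAP. The largest ranges over the 4 untreated arrays among brightest probe sets were 2.10 for BIRC2, 1.61 for NOL3 and 0.93 for CFLAR. Among 6902 other genes at or above the median, the highest Pearson correlations over the 8 arrays were with WTAP (0.990), PHLDA1 (0.988) and SF3A3 (0.986) for BIRC2. They were with TCFL5 (0.991), MRPS10 (0.988) and SORBS2 (0.987) for NOL3, and with SOAT1 (0.983), ZNF267 (0.980) and SPHK1 (0.976) for CFLAR. The 8 arrays are pairs from 4 lines, so these values mainly describe the lines.

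Any opposite sign within a gene was found in 7 of the 7 genes with several probe sets, against 90.9% of all such genes. The rule used here asks for 0.2 on both sides. A large difference beside one near 0 is therefore not counted, as for BCL2L1 in SKOV-3 (-0.78 for 206665_s_at beside 0.016 for 212312_at). With at least 0.2 in each direction in the same line, 0 of the 7 genes with several probe sets were counted, against 10.6% of all 4310 such genes in at least 1 line. By line that share of all genes was 2.97% in SKOV-3, 2.32% in DOV-13, 2.65% in CAOV-3 and 3.78% in OVCAR-3. With at least 0.1 each way 6 of the 7 were counted in at least 1 line, against 42.1% of all. A gene with more probe sets has more chances to be counted, and CFLAR has 11, MCL1 5 and BCL2 4. The shares of all genes were not matched for this number. Of the 81 pairs of probe sets of 1 gene, 51.9% had opposite signs in SKOV-3, 23.5% in DOV-13, 37.0% in CAOV-3 and 51.9% in OVCAR-3. Over all 11661 such pairs the shares were 41.7%, 41.6%, 37.4% and 47.3%. Most of the 81 pairs are of CFLAR, of which 10 of 11 probe sets were higher in DOV-13.

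The other genes of the pathway were taken from lists, by the brightest probe set of each gene. None of them passed limma's test over all probe sets in either direction (smallest adjusted p = 0.996). Of 9 further guards of the BCL2 and chaperone kind, 5 had a positive and 4 a negative mean change, with a median of 0.0011. BAG1, a co-chaperone that binds BCL2, had -0.12 ± 0.19 and FAIM, an inhibitor of FAS signalling, -0.087 ± 0.064 (SD, n = 4 lines). Of the other IAP genes, BIRC7 had 0.072 ± 0.19 and NAIP -0.033 ± 0.21.

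The pro-apoptotic BCL2 relatives had 9 positive and 2 negative mean changes and a median of 0.081. BIK, a BH3-only protein, had 0.31 ± 0.17 and BAX, which forms pores in mitochondria, -0.20 ± 0.24 (SD, n = 4 lines). In CAOV-3, 4 of the 11 were counted as higher, namely BID, BIK, BNIP3 and BNIP3L, beside 303 of all 11963 genes. Caspases and the apoptosome had 5 positive and 2 negative changes and a median of 0.029, with CASP2 at 0.20 ± 0.29 and CASP6 at -0.18 ± 0.21. Death receptor signalling genes had 7 positive and 1 negative and a median of 0.14, with FAS at 0.36 ± 0.35 and TNFRSF10B, a TRAIL receptor, at 0.23 ± 0.32. Of these 8, FAS, TNFRSF10B and TRAF3 were counted as higher in CAOV-3, by 0.88, 0.71 and 0.54. TNFSF10, which encodes TRAIL, was counted as higher in OVCAR-3, by 0.63. In OVCAR-3 the 11 measured interferon-stimulated genes had a median difference of 2.47, with 10 counted as higher, beside 64 of all 11963 genes. No apoptosis inhibitor was counted there. In CAOV-3 that list had a median of 2.12, in SKOV-3 0.13 and in DOV-13 -0.0089.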

How the data were processed

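RNA of 4 cell lines, treated with pI:pC or untreated, was measured on 8 Affymetrix arrays. The deposited values are log2 expression levels made by the authors with RMA, per the submitters' processing notes. Neither its version nor whether 1 run covered the 8 arrays is stated there, and no detection calls were used. Groups and lines came from the labels, and 62 array controls were left out of all tests. The platform annotation gave the gene names: 19064 probe sets carry 1 symbol, 1043 several and 2108 none. The rest was computed here. limma (version 3.58.1, R version 4.3.3) fitted treatment and cell line to each probe set (lmFit and eBayes, 3 residual and 4.59 prior degrees of freedom), two-sided with Benjamini-Hochberg adjustment over 22215 probe sets, and was tested on simulated data. Each line supplies its own pair: deviations from the group means correlated at 0.936 to 0.965 within every pair. With 1 array per condition the p-values of the treatment test measure the spread of the change between lines, and no error within a line is known. In the moderated F test the treated and the untreated array of a line stand in for replicates. Its p-values therefore rest on no replicate array of a line in the same condition. The number of arrays limits the precision. The members and lists were chosen with earlier results of these data known. Values on all arrays are given for 12 probe sets: those counted in a line, the brightest of each gene, and any pair opposite by 0.2 each way. The others named were chosen for their values. The pathway lists are shown with at most the 2 genes of largest mean change each, besides XAF1, AURKB, INCENP and CDCA8, and the interferon-stimulated list by medians and counts. Marker genes and other listed genes named were chosen for their levels or counts. Alternatives were no block, quantile normalization, centring, a level filter, trended eBayes, 1 row per gene and each line left out.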

Additional observations from a re-analysis of the deposited data

Results flagged for a closer look

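Among 99 sets of 4 values (treated levels, untreated levels and differences of the 33 probe sets), 3 held a value farther from the others than the critical value of Dixon's test, and chance flags about 1 in 20 such sets. BCL2L1 206665_s_at differed by -0.78 in SKOV-3, against 0.14 to 0.31 in the other lines. CFLAR 209508_x_at had 7.24 in treated DOV-13, against 6.31 to 6.41 in the other treated lines. CFLAR 211316_x_at had 8.39 in treated DOV-13, against 7.31 to 7.39. MCL1 200796_s_at differed by -0.58 in SKOV-3 and by 0.59 in CAOV-3, opposite directions under the same treatment, and that difference between the lines was not tested.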

How the results depend on the processing

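No member passed limma's test under any of the 11 alternatives, with smallest adjusted p between 0.724 (without SKOV-3) and 1. At an unadjusted p under 0.05 there were 4 members without SKOV-3 (1504 of all 22215 probe sets), 0 of the genes averaged over their probe sets, and 1 under the other alternatives with the cell line as a block. Without that block 0 members were under it and the smallest adjusted p was 1. Under every alternative run for it, between 14 (without DOV-13, with 13028 of all 22215) and 19 of the 33 members differed between lines, except that the level filter left 17 members, of which 15 did (10192 of all 11108). At 1 on the log2 scale the counts within a line were 0 in SKOV-3 and 0 in CAOV-3, where 2 and 4 were counted at 0.5. With no level filter SKOV-3 had 4. Genes with opposite signs were 0 at 0.2 each way, 6 at 0.1 (42.1% of all genes) and 7 of 7 with any opposite sign (90.9% of all genes). These shares were not matched for the number of probe sets of a gene. Leaving out the block cannot alter a mean change in this paired design, and centring shifts every mean change by 1 common amount. Of 12 probe sets, 7 had a mean change that turned sign when 1 line was left out, and none did so under quantile normalization or centring. Their lowest and highest values without 1 line were -0.129 and 0.258 for MCL1 200796_s_at, -0.046 and 0.181 for BIRC2, -0.217 and 0.0007 for BIRC5 202095_s_at, -0.223 and 0.0021 for BIRC5 210334_x_at, -0.078 and 0.060 for XIAP 206536_s_at, -0.068 and 0.132 for CFLAR 209939_x_at, and -0.177 and 0.108 for CFLAR 211317_s_at. NOL3 59625_at stayed between -0.211 and -0.182. Why values turned was not tested beyond the line left out. BCL2, BCL2A1 and XIAP lay under the array medians, where RMA compresses differences.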
